A study of Homo sapiens with 9 samples.

Results

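The genes described are 10 that encode costimulatory and coinhibitory proteins of antigen-presenting cells: CD80, CD86, ICOSLG, CD274, PDCD1LG2, CD40, CD70, TNFSF9, CD83 and CD58. They were chosen by symbol, and all 10 have a row among the 26816 genes of the count table. The cells were OCI-Ly1, a cell line grown from a human diffuse large B-cell lymphoma, and polyadenylated RNA was sequenced in 9 libraries. There were 3 libraries with the shRNA sh68 and 3 with sh72, both directed against LSD1 (gene symbol KDM1A), and 3 with shSCR, a scrambled shRNA with no target. All cells carried a pLKO1 shRNA vector and had been selected in puromycin, and the replicates are described as biological triplicates. The libraries are named as in the count table, where sh68 and sh72 repeat the end of the clone names, because the sample titles only number the LSD1 shRNAs and do not name the clones. The labels do not say how long after transduction the cells were collected, and 1 cell line was used, so the values describe that line.

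B cells present antigen to T cells, and a T cell that recognises antigen is fully activated only when costimulatory receptors are engaged as well. CD80 and CD86, of the B7 family, bind CD28 and CTLA4 on T cells, and the related proteins PD-L1 (CD274) and PD-L2 (PDCD1LG2) bind the inhibitory receptor PD-1. CD40 is the receptor on the B cell for CD40 ligand of helper T cells, and its signal through NF-kB raises CD80 and other activation genes. Germinal-centre B cells are held in their state by the repressor BCL6, which acts with corepressor complexes, and LSD1 is a histone demethylase found in such complexes.

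Promoter sequences are given for the genes that carried the main changes and had an entry in RefSeq (build GRCh38.p14), each running 5′ to 3′ on the gene's own strand from 250 bases before to 50 bases after an annotated start. CD80 (chr3:119559565-119559864, minus strand) and CD58 (chr1:116570977-116571276, minus strand) are the 2 genes that rose. CD83 (chr6:14117522-14117821, plus strand, its second annotated start) is shown as the gene with the lowest fold change, and capitals mark a run of overlapping matches to the NF-kB motif.
CD80: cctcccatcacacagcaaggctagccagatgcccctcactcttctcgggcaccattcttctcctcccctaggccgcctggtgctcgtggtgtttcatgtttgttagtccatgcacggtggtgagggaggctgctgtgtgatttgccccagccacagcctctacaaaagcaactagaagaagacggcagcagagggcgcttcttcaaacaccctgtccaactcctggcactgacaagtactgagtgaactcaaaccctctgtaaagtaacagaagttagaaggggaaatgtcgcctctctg
CD58: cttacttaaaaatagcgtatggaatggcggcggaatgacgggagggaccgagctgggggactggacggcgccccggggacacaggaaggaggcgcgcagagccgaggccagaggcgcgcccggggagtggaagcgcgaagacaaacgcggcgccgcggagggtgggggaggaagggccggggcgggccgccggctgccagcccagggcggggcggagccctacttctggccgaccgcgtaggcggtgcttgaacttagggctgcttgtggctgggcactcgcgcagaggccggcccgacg
CD83: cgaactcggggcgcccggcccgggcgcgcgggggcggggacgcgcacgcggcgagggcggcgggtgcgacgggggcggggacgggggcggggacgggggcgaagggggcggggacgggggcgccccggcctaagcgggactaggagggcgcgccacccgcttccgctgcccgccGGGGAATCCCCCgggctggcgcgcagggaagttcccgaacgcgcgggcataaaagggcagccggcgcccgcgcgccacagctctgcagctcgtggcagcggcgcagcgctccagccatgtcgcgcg

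Of the 10 genes, 7 had an entry, with 9 starts among them, and CD40, CD70 and PDCD1LG2 were not matched. A set of 3 motifs was searched on both strands: the NF-kB motif, the paired half-sites TTCNNNGAA that STAT proteins and BCL6 recognise, and the interferon-response motif, in which GAAA stands as a pair of copies separated by any 2 bases. They occur in 5.91%, 7.66% and 3.57% of 35116 promoter windows of the same length. The CD80 and CD58 windows held none of these patterns. The printed CD83 window held 3 overlapping NF-kB matches, the first beginning 76 bases before the start, and the window of the other CD83 start (chr6:14117006-14117305) held no match to any of the 3 motifs. Among the windows not printed, the second start of CD86 held NF-kB matches, CD274 held interferon-response and half-site matches, and TNFSF9 held 1 interferon-response match. A match is a letter pattern and not a binding site.

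The 9 libraries held 29506767 to 35270849 counted reads. The targeted gene, KDM1A (chr1:23019468-23083689), averaged 24.4 ± 1.26 CPM with sh68 and 20.9 ± 1.82 CPM with sh72, against 121 ± 1.44 CPM with shSCR (SD, n = 3 each), where CPM is the read count scaled to 1000000 reads of the normalized library. Its log2 fold change was -2.31 ± 0.0542 with sh68 and -2.54 ± 0.0556 with sh72 (SE, edgeR adjusted p = 2.76e-20 and 5.15e-20). Levels of 9 B-cell markers, among them MS4A1, CD79B and PAX5, were summed. The sums were 4466 to 4598 CPM with sh68 and 2864 to 3044 CPM with sh72, against 4458 to 4603 CPM with shSCR. With sh72, 8 of the 9 passed as lower and 0 as higher, against 26.3% and 24.7% of all tested genes. With sh68, 1 passed as lower and 4 as higher, against 28.1% and 27.4% of all tested genes. Lists of markers of other cells were low in part and moved in part. Of 10 T-cell markers 9 had a row, with summed levels of 146 to 155 CPM with sh68 and 90.2 to 94.6 CPM with sh72, against 127 to 141 CPM with shSCR. Most of that sum was LCK, which averaged 145 ± 4.53 CPM with sh68 and 85.3 ± 2.1 CPM with sh72, against 130 ± 6.68 CPM with shSCR (SD, n = 3 each). CD3D, at or below 0.308 CPM in the mean of every shRNA, and CD247 were higher on the mean of both shRNAs, CD5 and LCK were lower, and CD3E was at or below 0.0612 CPM. Of 10 monocyte and macrophage markers 6 had a row, with sums of 3.92 to 4.79 CPM with sh68 and 2.76 to 3.16 CPM with sh72, against 4.19 to 4.45 CPM with shSCR. Among them CD14 was at or below 0.212 CPM, and LYZ had 81 reads with sh68 and 4 with sh72, against 0 with shSCR. Of 7 natural killer cell markers 6 had a row, with sums, mostly PRF1, of 11.2 to 12.3 CPM with sh68 and 6.63 to 7 CPM with sh72, against 4.21 to 4.6 CPM with shSCR. Within that list KLRD1 averaged 0.957 ± 0.161 CPM with sh68 and 1.23 ± 0.194 CPM with sh72, against 0.227 ± 0.0134 CPM with shSCR, a 4.72-fold rise on the mean (edgeR adjusted p = 3.64e-07), and GNLY and KLRF1 had 1 read each in all. The part of these markers in the changes described below was not tested.

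**Figure D1:**
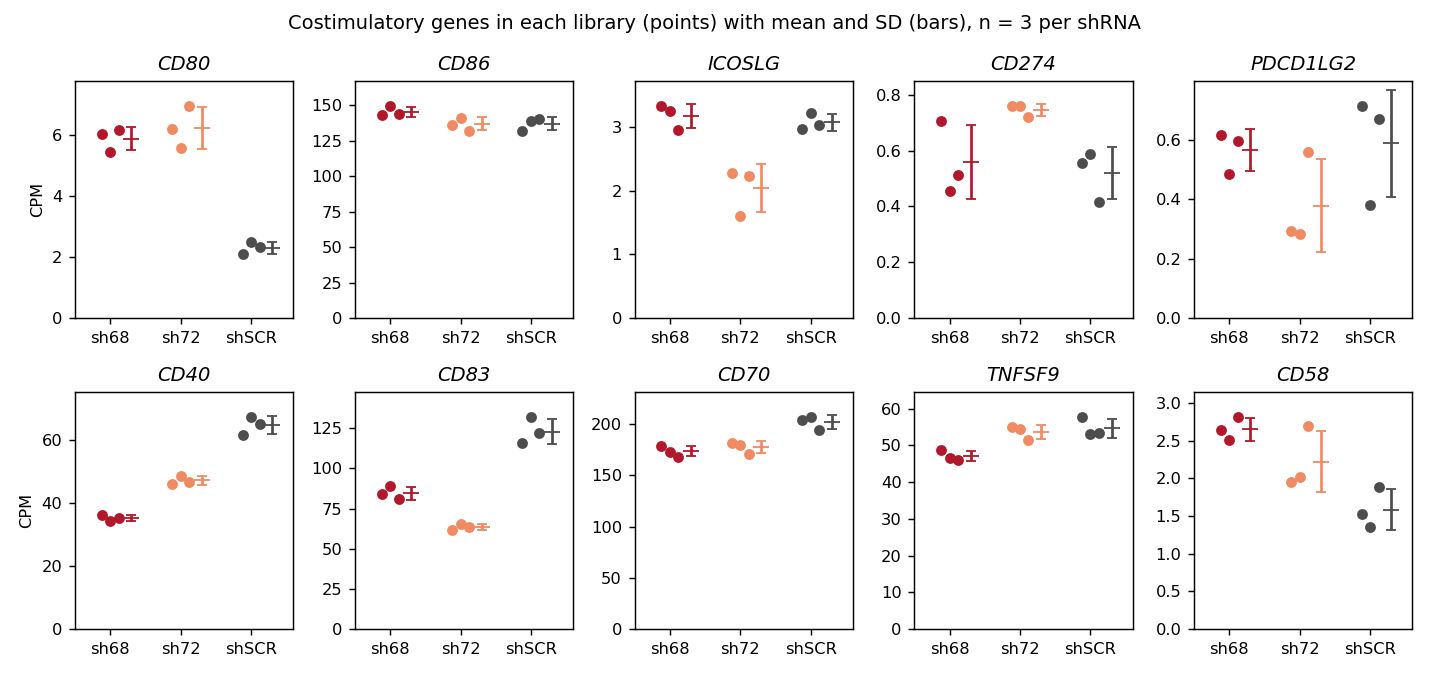
Level of each costimulatory gene in CPM (y axis, from 0) in every library, with sh68, sh72 and shSCR along the x axis, where points are libraries and bars the mean and SD of 3. CD80 lies at 5.44 to 6.92 CPM in the 6 LSD1 shRNA libraries, above 2.1 to 2.49 CPM in the shSCR libraries, and CD40, CD83 and CD70 lie below their shSCR libraries in all 6.

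CD80 rose with both LSD1 shRNAs. It had 196, 191 and 217 reads in the sh68 libraries and 212, 176 and 211 in the sh72 libraries, against 68, 72 and 73 in the shSCR libraries. On the CPM scale these were 6.02, 5.44 and 6.16 CPM with sh68 and 6.18, 5.56 and 6.92 CPM with sh72, against 2.1, 2.49 and 2.33 CPM with shSCR. All 6 LSD1 shRNA libraries lay above all 3 shSCR libraries, and those of sh68 and sh72 overlapped. The log2 fold change was 1.35 ± 0.127 with sh68 (SE, edgeR adjusted p = 3.78e-09) and 1.43 ± 0.127 with sh72 (edgeR adjusted p = 1.64e-09). On the mean of both shRNAs it was 1.39 ± 0.114, or 2.62-fold (95% interval of the log2 value 1.15 to 1.63, edgeR adjusted p = 4.18e-10), which is above the value of 97.6% of tested genes. The difference of sh72 minus sh68 was 0.082 on the log2 scale with an interval of -0.14 to 0.30 (edgeR adjusted p = 0.539). In these bulk libraries, more cells with the RNA and more RNA per cell cannot be told apart, here or for the genes below.

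The exons of CD80 (chr3:119524293-119559614, minus strand) share 798 bases with TIMMDC1, a gene for a mitochondrial protein on the other strand. The strand setting of the counting is not given in the sources used here, so reads in the shared stretch cannot be assigned with certainty. TIMMDC1 itself averaged 75.4 ± 0.579 CPM with sh68 and 84.6 ± 2.53 CPM with sh72, against 70.0 ± 0.89 CPM with shSCR (SD, n = 3 each). Its log2 fold change on the mean of both shRNAs was 0.19 ± 0.0358 (SE, edgeR adjusted p = 8.88e-05). The part of TIMMDC1 reads in the CD80 counts was not tested.

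CD86, the other ligand of CD28 and CTLA4, did not pass the test. It had 4670, 5239 and 5066 reads with sh68 and 4674, 4467 and 4036 with sh72, against 4264, 4012 and 4380 with shSCR. These gave 145 ± 3.26 CPM with sh68 and 137 ± 4.37 CPM with sh72, against 137 ± 4.3 CPM with shSCR (SD, n = 3 each). The 3 sh68 libraries lay above the shSCR libraries by a narrow margin and the sh72 libraries overlapped them. The log2 fold change was 0.089 with sh68 (edgeR adjusted p = 0.0567) and -0.0021 with sh72 (edgeR adjusted p = 0.97), and the 95% interval on the mean of both was -0.027 to 0.11. With sh68 the value passed under 10 of 20 alternative settings, including without shSCR replicate 3 (0.11), sh68 replicate 1 (0.11) and sh72 replicate 1, 2 or 3 (0.088 to 0.098).

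Read against exon length, CD80 remained the minor of the pair. It stood at 3.94 ± 0.337% of CD86 with sh68 and 4.45 ± 0.628% with sh72, against 1.64 ± 0.0986% with shSCR (SD, n = 3 each, ratio of reads per kilobase). In RPKM, which is CPM per kilobase of exon, CD80 averaged 1.96 with sh68 and 2.08 with sh72, against 0.771 with shSCR, and CD86 averaged 49.9 with sh68 and 46.8 with sh72, against 46.9 with shSCR.

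ICOSLG, which encodes the ligand of the T-cell receptor ICOS, differed between the shRNAs. It had 108, 114 and 104 reads with sh68 and 78, 51 and 68 with sh72, against 96, 93 and 95 with shSCR. The sh72 libraries all lay below the shSCR libraries in CPM, and the sh68 libraries overlapped them. ICOSLG averaged 3.17 ± 0.193 CPM with sh68 and 2.04 ± 0.371 CPM with sh72, against 3.07 ± 0.131 CPM with shSCR (SD, n = 3 each). It fell with sh72 by 0.59 on the log2 scale (SE 0.154, edgeR adjusted p = 0.00256), and with sh68 the value was 0.046 (edgeR adjusted p = 0.802). On the mean of both the value was -0.27 (edgeR adjusted p = 0.0792), and it passed without sh72 replicate 1 (-0.32). The fall with sh72 went with the lower B-cell markers in those libraries, and their part in it was not tested.

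The ligands of PD-1 were near the limit of detection. CD274 (PD-L1) had 23, 16 and 18 reads with sh68 and 26, 24 and 22 with sh72, against 18, 17 and 13 with shSCR. PDCD1LG2 (PD-L2) had 20, 17 and 21 reads with sh68 and 10, 9 and 17 with sh72, against 23, 11 and 21 with shSCR. The groups overlapped for PDCD1LG2, and for CD274 the 3 sh72 libraries, at 0.722 to 0.758 CPM, lay above the other 6, at 0.415 to 0.706 CPM. On the mean of both shRNAs the log2 value was 0.31 for CD274 (95% interval -0.21 to 0.83, edgeR adjusted p = 0.319) and -0.37 for PDCD1LG2 (-0.95 to 0.22, edgeR adjusted p = 0.295). These intervals do not exclude changes of over 1.5-fold in one direction. Without sh72 replicate 3, PDCD1LG2 passed in sh72 against shSCR (-1.01, against -0.66 with all libraries).

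CD40 (chr20:46118314-46129858), the receptor of the TNF receptor family through which T cells stimulate B cells, fell with both LSD1 shRNAs. It stood at 36.1, 34.4 and 35.2 CPM with sh68 and 46.1, 48.6 and 46.5 CPM with sh72, against 61.5, 67.2 and 65.1 CPM with shSCR. No 2 of the 3 shRNAs overlapped, and sh68 was the lowest. The log2 fold change was -0.87 ± 0.0484 with sh68 (SE, edgeR adjusted p = 2.52e-13), which is 45.4% lower, and -0.46 ± 0.0475 with sh72 (edgeR adjusted p = 2.36e-08), which is 27.1% lower. The shRNAs differed from each other by 0.42 ± 0.0493 in sh72 minus sh68 (edgeR adjusted p = 1.21e-07).

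CD83, a surface glycoprotein of activated B cells and mature dendritic cells, also fell with both, in the other order. It stood at 84.3, 88.8 and 80.7 CPM with sh68 and 61.5, 65.5 and 63.6 CPM with sh72, against 116, 132 and 122 CPM with shSCR, again with no overlap between any 2 shRNAs. The log2 fold change was -0.54 ± 0.0475 with sh68 (SE, edgeR adjusted p = 1.06e-09) and -0.96 ± 0.0487 with sh72 (edgeR adjusted p = 9.56e-14). In sh72 minus sh68 the difference was -0.41 ± 0.0491 (edgeR adjusted p = 1.37e-07). CD83 and CD40 therefore fell most with different shRNAs. The summed B-cell markers were lower with sh72 and not with sh68, and their part in the lower CD83 with sh72 was not tested.

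CD70 and TNFSF9 (4-1BB ligand), the TNF-family ligands of the T-cell receptors CD27 and 4-1BB, changed little in size. CD70 averaged 174 ± 5.21 CPM with sh68 and 178 ± 5.97 CPM with sh72, against 202 ± 6.73 CPM with shSCR (SD, n = 3 each). All 6 LSD1 shRNA libraries lay below the 3 shSCR libraries, and the log2 fold change was -0.22 with sh68 and -0.18 with sh72 (edgeR adjusted p = 5.36e-05 and 0.000426). TNFSF9 averaged 47.1 ± 1.35 CPM with sh68 and 53.7 ± 1.98 CPM with sh72, against 54.7 ± 2.63 CPM with shSCR, and the sh72 and shSCR libraries overlapped. It fell with sh68 by 0.22 on the log2 scale (SE 0.049, edgeR adjusted p = 0.00065), while with sh72 the value was -0.028 (edgeR adjusted p = 0.661) and the difference of sh72 minus sh68 was 0.19 ± 0.0489 (edgeR adjusted p = 0.00217). That difference did not pass with offsets for the GC content and length of transcripts (0.085). On the mean of both its value of -0.12 passed (edgeR adjusted p = 0.0186), but not without shSCR replicate 1 (-0.069), sh68 replicate 2 (-0.11), sh68 replicate 3 (-0.10) or sh72 replicate 3 (-0.094), with library size alone (-0.088) or with the 6 LSD1 shRNA libraries as 1 group (-0.12).

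CD58, which binds the adhesion receptor CD2 on T cells and natural killer cells, rose, and its levels were low. It had 86, 88 and 99 reads with sh68 and 67, 64 and 82 with sh72, against 49, 39 and 59 with shSCR. This is 2.65 ± 0.152 CPM with sh68 and 2.22 ± 0.407 CPM with sh72, against 1.58 ± 0.272 CPM with shSCR (SD, n = 3 each), and all 6 LSD1 shRNA libraries lay above the 3 shSCR libraries. The log2 fold change was 0.74 ± 0.173 with sh68 (SE, edgeR adjusted p = 0.00083), 0.48 ± 0.18 with sh72 (edgeR adjusted p = 0.0294) and 0.61 ± 0.156 on the mean of both (edgeR adjusted p = 0.00204). The call with sh72 was lost without sh72 replicate 3 (0.34), shSCR replicate 1 (0.46) or shSCR replicate 2 (0.39), and with offsets for GC content and length (0.41).

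**Figure D2:**
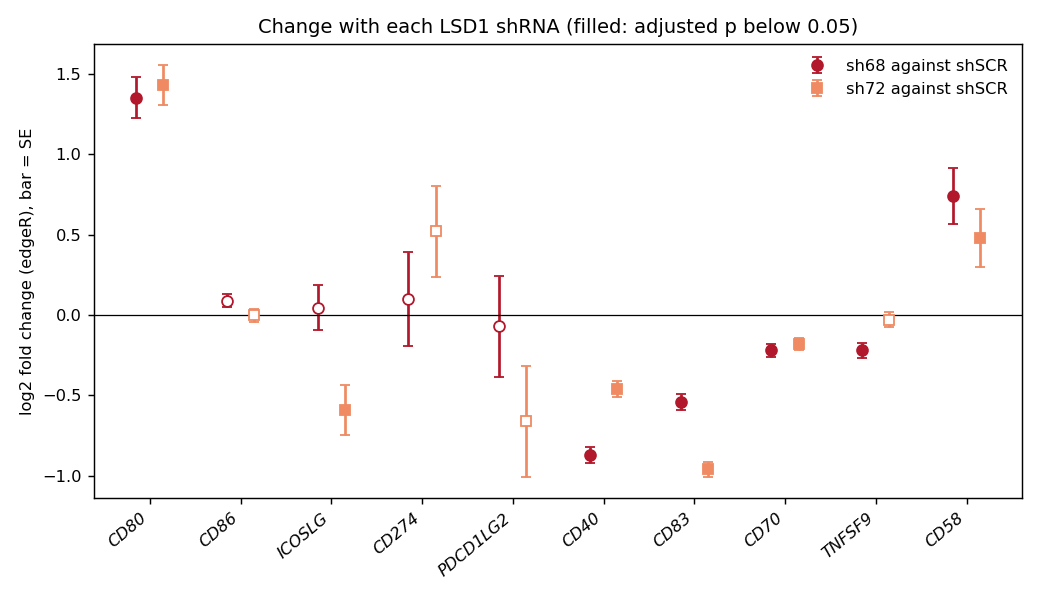
Log2 fold change against shSCR (y axis) of each gene (x axis) with sh68 (circles) and sh72 (squares), where bars are the SE and filled symbols have an edgeR adjusted p below 0.05. The symbols of CD80 lie together at 1.35 and 1.43, while those of CD40 (-0.87 and -0.46), CD83 (-0.54 and -0.96) and ICOSLG (0.046 and -0.59) lie apart.

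On the mean of both shRNAs 2 of the 10 genes passed as higher (CD80 and CD58) and 4 as lower (CD40, CD83, CD70 and TNFSF9). Among the 15725 tested genes 52.3% passed in that contrast, 24.9% as higher and 27.5% as lower, so 6 of 10 is close to the share of all genes and is not a result about these genes. With sh68 the same numbers passed, 2 as higher and 4 as lower, against 55.5% of all genes (27.4% higher and 28.1% lower). With sh72 they were again 2 and 4, against 51.0% of all genes (24.7% higher and 26.3% lower), with ICOSLG in the place of TNFSF9. In sh72 minus sh68, CD40 and TNFSF9 passed as higher and CD83 and ICOSLG as lower, against 56.2% of all genes (27.2% higher and 29.0% lower). In CPM, the 6 LSD1 shRNA libraries lay all above or all below the 3 shSCR libraries for 5 of the 10 genes and for 29.9% of tested genes. Tested against a minimum of 1.5-fold, 2 of the 10 passed on the mean (CD80 and CD83), against 5.71% of all tested genes. At that minimum 2 passed with sh68 (CD80 and CD40), 2 with sh72 (CD80 and CD83) and 0 in sh72 minus sh68, against 9.39%, 6.90% and 8.87% of all tested genes. Of the 10 genes 5 passed when the 6 LSD1 shRNA libraries formed 1 group, against 22.8% of all tested genes. The comparisons of sh68 and sh72 with shSCR share the shSCR libraries.

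**Figure D3:**
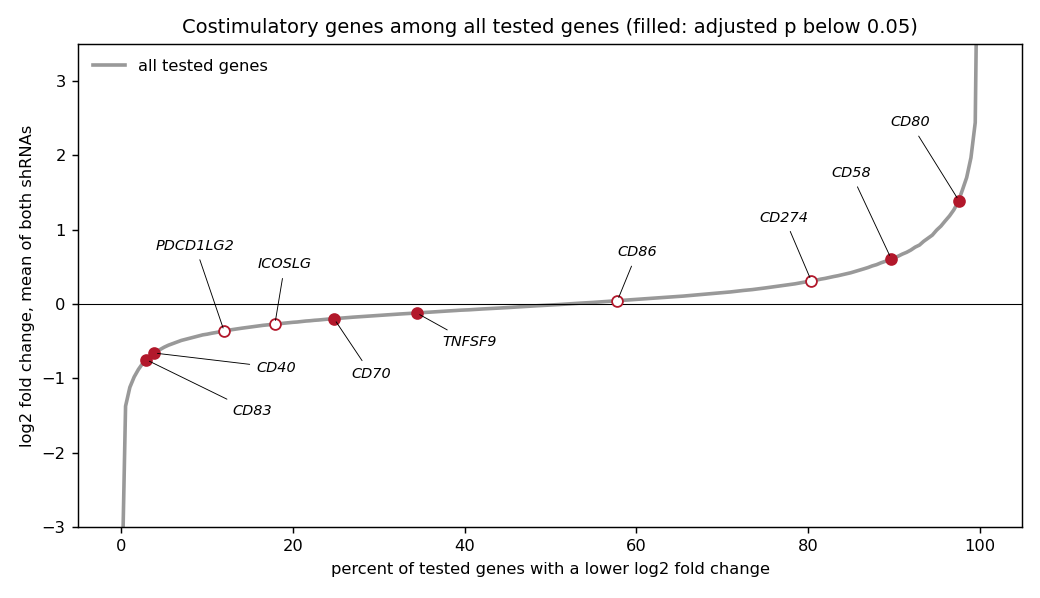
Log2 fold change on the mean of both shRNAs (y axis, shown from -3 to 3.5) of all 15725 tested genes in order (line), with the 10 costimulatory genes at their places (points, filled where the edgeR adjusted p is below 0.05). The x axis is the percent of tested genes with a lower value. CD80 stands above 97.6% of tested genes and CD40 and CD83 above 3.8% and 2.9%.

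**Figure D4:**
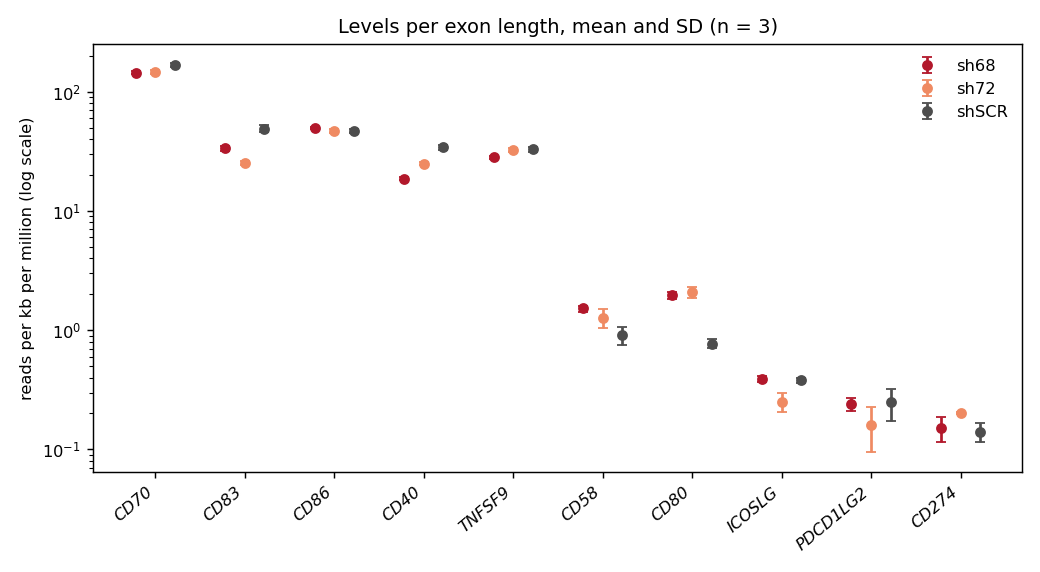
Levels in RPKM on a log axis, mean and SD of 3 libraries, for sh68, sh72 and shSCR, with genes in the order of their shSCR level. CD70 is the highest gene (144, 147 and 167 RPKM with sh68, sh72 and shSCR). With shSCR a gap of more than 1 log10 unit separates TNFSF9 (32.9 RPKM) from CD58 (0.905 RPKM). The widest gap is narrower with the LSD1 shRNAs and lies between CD40 and CD80, with sh68 (18.7 and 1.96 RPKM) and with sh72 (24.9 and 2.08 RPKM).

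Per exon length, taken from GENCODE 29, the genes fell into an upper set of 5 and a lower set of 5. The annotation used for the counting is not given, so the lengths counted may differ from these. With shSCR the order was CD70 at 167 RPKM, CD83 at 49.1, CD86 at 46.9, CD40 at 34.2 and TNFSF9 at 32.9, followed by CD58 at 0.905, CD80 at 0.771, ICOSLG at 0.379, PDCD1LG2 at 0.248 and CD274 at 0.141 RPKM. CD83 and CD86, CD40 and TNFSF9, and CD58 and CD80 were neighbours closer together than the sum of their SDs. With sh68, CD86 (49.9 RPKM) stood above CD83 (33.6), TNFSF9 (28.3) above CD40 (18.7), and CD80 (1.96) above CD58 (1.52). The same order of these pairs held with sh72, where CD83 (25.3 RPKM) and CD40 (24.9) were close together.

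By profile over the 9 libraries, on log2 CPM centred on each gene's mean, the genes nearest to CD80 among 10909 compared were CCDC141, CD1C and CECR1, at Euclidean distances of 0.325, 0.36 and 0.364. CD1C, which encodes a lipid-presenting molecule of dendritic cells and some B cells, averaged 9.55 ± 1.03 CPM with sh68 and 10.2 ± 0.496 CPM with sh72, against 3.85 ± 0.382 CPM with shSCR (SD, n = 3 each). CD1C is also one of 7 dendritic-cell markers with a row, of 10 listed, whose summed level was 175 to 200 CPM with sh68 and 61.6 to 62.1 CPM with sh72, against 128 to 143 CPM with shSCR. Most of that sum was LAMP3. Of the 5 tested dendritic markers 3 were higher on the mean of both shRNAs (CD1C, BATF3 and FLT3) and 2 were lower (LAMP3 and CCR7). With sh68 all 5 were higher, LAMP3 and CCR7 among them. With sh72, 2 were higher, 2 were lower and 1 did not pass. Among all tested genes, 24.9% passed as higher and 27.5% as lower on the mean. The shares were 27.4% higher and 28.1% lower with sh68, and 24.7% higher and 26.3% lower with sh72. BATF3 averaged 1.42 ± 0.515 CPM with sh68 and 1.34 ± 0.132 CPM with sh72, against 0.375 ± 0.0791 CPM with shSCR, and FLT3 had 38 reads with sh68 and 7 with sh72, against 1 with shSCR. XCR1 was at or below 0.0215 CPM, and the part of these markers in the rise of CD80 was not tested. Nearest to CD40 were CTSZ, TPM3 and RABL2B, at distances of 0.19, 0.194 and 0.202. CTSZ, a lysosomal cathepsin, averaged 88.8 ± 3.05 CPM with sh68 and 117 ± 3.5 CPM with sh72, against 156 ± 3.57 CPM with shSCR.

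Among 20 genes of CD40 receptor signalling, all tested, 6 rose, 5 fell and 9 did not pass on the mean of both shRNAs. Their median log2 fold change was -0.0034, against -0.015 over all tested genes. For this list and those below, 24.9% of all tested genes passed as higher and 27.5% as lower on the mean. Those shares were 27.4% and 28.1% with sh68, and 24.7% and 26.3% with sh72. In this list 7 genes were higher and 9 lower with sh68, and 8 were higher and 4 lower with sh72. TANK, a TRAF-binding adaptor, averaged 116 ± 1.35 CPM with sh68 and 116 ± 5.86 CPM with sh72, against 78.7 ± 2.9 CPM with shSCR (SD, n = 3 each), a log2 fold change of 0.56 ± 0.0382 (SE, edgeR adjusted p = 1.85e-11). RELB, an NF-kB subunit of the alternative pathway, rose by 0.48 (edgeR adjusted p = 1.76e-07), and OTUB1, a deubiquitinase, fell by 0.42 (edgeR adjusted p = 6.43e-10). TRAF1, an adaptor induced by NF-kB, rose by 0.47 on the mean, with 27.1 ± 2.87 CPM with sh68 and 13.4 ± 1.83 CPM with sh72, against 13.7 ± 0.877 CPM with shSCR, and did not pass with the 6 LSD1 shRNA libraries as 1 group.

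Of 20 genes that CD40 and NF-kB induce in B cells 13 were tested. On the mean 3 rose, 5 fell and 5 did not pass, with a median of -0.12. In this list 2 genes were higher and 5 lower with sh68, and 2 were higher and 3 lower with sh72. ICAM1, an adhesion molecule, rose by 0.47 on the mean (edgeR adjusted p = 4.89e-06) and averaged 13.4 ± 1.4 CPM with sh68 and 20.3 ± 1.14 CPM with sh72, against 11.9 ± 0.578 CPM with shSCR. TNFAIP3, an inhibitor of NF-kB, averaged 7.5 ± 0.414 CPM with sh68 and 12.4 ± 0.816 CPM with sh72, against 12.8 ± 1.15 CPM with shSCR, and its log2 value on the mean was -0.41 (edgeR adjusted p = 4.32e-05). IRF4, a transcription factor of activated B cells and plasma cells, stood at 1.09 ± 0.455 CPM with sh68 and 0.36 ± 0.0891 CPM with sh72, against 0.301 ± 0.0616 CPM with shSCR. Its call on the mean (1.05, edgeR adjusted p = 0.0145) was lost without shSCR replicate 2 (1.00) or 3 (0.94). BATF, a partner of IRF4, passed at 0.42 on the mean (edgeR adjusted p = 0.0361), and not without shSCR replicate 1 (0.35) or 3 (0.42), sh68 replicate 3 (0.42) or sh72 replicate 2 (0.35). Nor did BATF pass with DESeq2 (DESeq2 adjusted p = 0.0622) or limma-voom (limma-voom adjusted p = 0.0535). These 4 genes did not pass with the 6 LSD1 shRNA libraries as 1 group.

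Other ligands of the same families moved in both directions. Of 7 tested B7 and butyrophilin genes 3 rose and 2 fell on the mean, with a median of 0.57. Taken singly, sh68 gave 3 higher and 2 lower, and sh72 gave 5 higher and 1 lower. The butyrophilin gene BTN1A1 averaged 0.871 ± 0.463 CPM with sh68 and 2.07 ± 0.211 CPM with sh72, against 0.469 ± 0.19 CPM with shSCR, and was 2.83-fold higher on the mean (edgeR adjusted p = 0.000213). BTN2A1 and BTN3A3, also low, rose by 1.37 and 1.15 on the log2 scale (edgeR adjusted p = 0.00041 and 0.000158), and BTNL9, at 127 ± 8.21 CPM with shSCR, fell by 0.27 (edgeR adjusted p = 0.000256). Of 7 tested TNF-family ligands 4 rose and 2 fell on the mean, with a median of 0.24, and 3 passed in all without shSCR replicate 1. None of the rises on the mean passed with sh72 taken singly, which alone does not show that the shRNAs differed. With sh68, 3 ligands were higher and 2 lower (median 0.21), while with sh72, 0 were higher and 3 lower (median -0.15). TNFSF15, a ligand of death receptor DR3, averaged 9.72 ± 0.835 CPM with sh68 and 9.54 ± 0.306 CPM with sh72, against 16.3 ± 0.163 CPM with shSCR, a log2 fold change of -0.75 (edgeR adjusted p = 7.88e-10). TNFSF13B, the B-cell survival factor BAFF, fell by 0.90 (edgeR adjusted p = 0.000491). TNFSF8, the CD30 ligand, averaged 98.0 ± 2.26 CPM with sh68 and 46.6 ± 1.27 CPM with sh72, against 46.5 ± 2.31 CPM with shSCR. TNFSF13, the related factor APRIL, passed at 0.40 on the mean (edgeR adjusted p = 0.017), and not without shSCR replicate 1 (0.39) or 3 (0.33). BTN1A1, BTNL9, TNFSF8 and TNFSF13 did not pass with the 6 LSD1 shRNA libraries as 1 group.

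A further list held 16 tested genes. They encode adhesion molecules, members of the CD2 and SLAM family, to which CD58 is related, and other partners of T cells, among them LGALS9 and HAVCR2. ICAM1 was counted here and among the genes induced by CD40 and NF-kB. On the mean of both shRNAs 10 rose, 3 fell and 3 did not pass, with a median of 0.43. The shRNAs taken singly gave 8 higher and 1 lower with sh68, and 7 higher and 6 lower with sh72. LGALS9, which encodes galectin-9, had levels of 16.1 ± 1.47 CPM with sh68 and 14.7 ± 0.166 CPM with sh72, against 55.1 ± 4.36 CPM with shSCR (log2 fold change -1.84 ± 0.055 SE, edgeR adjusted p = 4.43e-18). HAVCR2, a receptor for galectin-9 better known as TIM-3, averaged 0.749 ± 0.0881 CPM with sh68 and 1.18 ± 0.141 CPM with sh72, against 0.451 ± 0.0933 CPM with shSCR, and rose by 1.04 (edgeR adjusted p = 0.000835). SLAMF1 stood at 3.19 ± 0.555 CPM with sh68 and 0.751 ± 0.12 CPM with sh72, against 0.795 ± 0.233 CPM with shSCR. SLAMF7 passed at 1.27 (edgeR adjusted p = 0.0101), with shSCR replicate 2 holding 16 of its 22 shSCR reads. Its value was 2.58 without that library, and it did not pass without shSCR replicate 1 (0.80) or 3 (0.97). Of 8 receptors of the costimulatory ligands 1 was tested, CD27, the receptor of CD70, with a value of 0.11 (edgeR adjusted p = 0.0276) that did not pass without shSCR replicate 3 (0.081). SLAMF1, SLAMF7 and CD27 did not pass with the 6 LSD1 shRNA libraries as 1 group.

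Of 15 tested regulators of PD-L1, PD-L2 and CD86 levels, 3 rose, 7 fell and 5 did not pass on the mean, with a median of -0.12. The shRNAs were unlike, with 5 higher and 6 lower with sh68 (median -0.12). There were 2 higher and 11 lower with sh72 (median -0.36). IRF9, a transcription factor of the type I interferon response, averaged 30.2 ± 1.81 CPM with sh68 and 50.5 ± 2.01 CPM with sh72, against 81.8 ± 1.36 CPM with shSCR (SD, n = 3 each). Its log2 fold change on the mean was -1.06 ± 0.0412 (SE, edgeR adjusted p = 4.35e-16). STAT3, a factor that acts on the PD-L1 gene, fell by 0.52 (edgeR adjusted p = 6.46e-10). IFNGR2, a subunit of the interferon-gamma receptor, passed at -0.45 (edgeR adjusted p = 0.0186), and not without shSCR replicate 1 (-0.41) or 2 (-0.38). Nor did IFNGR2 pass with DESeq2 (DESeq2 adjusted p = 0.0613). BCL6 itself averaged 564 ± 16.7 CPM with sh68 and 608 ± 23.2 CPM with sh72, against 651 ± 13.5 CPM with shSCR, and its log2 fold change on the mean was -0.15 (edgeR adjusted p = 0.00035). IFNGR2 and BCL6 did not pass with the 6 LSD1 shRNA libraries as 1 group.

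**Figure D5:**
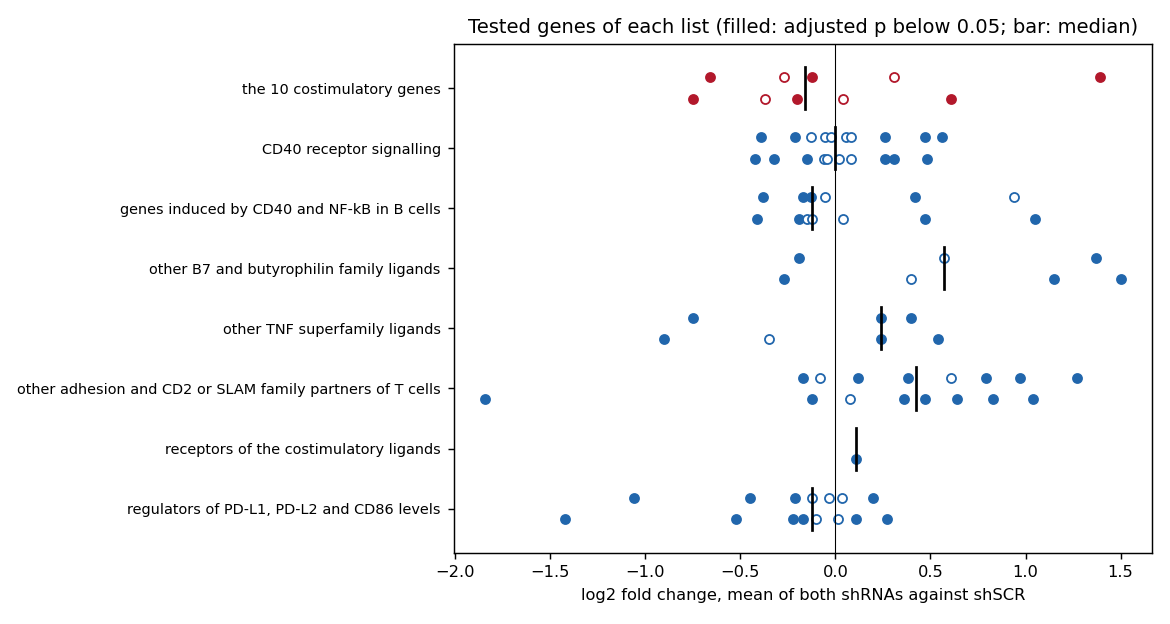
Log2 fold change on the mean of both shRNAs (x axis) of the tested genes of each list (rows), where filled points have an edgeR adjusted p below 0.05 and the bar is the list's median. Each list but that of receptors, with 1 tested gene, holds values on both sides of 0, and the medians lie between -0.16 for the 10 costimulatory genes and 0.57 for the other B7 and butyrophilin ligands.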

How the data were processed

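RNA of 9 OCI-Ly1 libraries was used. The deposited values are raw read counts per gene symbol, not normalized by the authors. Tools named in the submitters' processing notes are featureCounts 1.5.2, STAR 2.5.2 and CASAVA 1.8.2, with hg38 as the genome. Which gene annotation and strand setting were used is not given in the sources used here. All 9 columns were used, and library totals were 29506767 to 35270849 reads.

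The counts were fitted with edgeR 4.0.16 (limma 3.58.1, R 4.3.3). The function filterByExpr kept 15725 genes, libraries were scaled by TMM (factors 0.979 to 1.02), and 1 quasi-likelihood model had a term per shRNA (common biological coefficient of variation 0.0394). Benjamini-Hochberg adjustment ran over the 15725 genes, and a gene passed at an adjusted p below 0.05. The scripts were tested on simulated data. CPM uses the scaled library sizes, and RPKM divides it by the exon length of GENCODE 29. Promoters came from RefSeq.

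Named were all 10 costimulatory genes, KDM1A, BCL6, genes with exons overlapping a member, up to 4 passing members per list by size of change, and the 3 nearest profiles to CD80 and CD40. A gene that this rule took is not reported here. The members and lists were chosen with earlier results of these data known. DESeq2 1.42.0 and other settings served as alternatives. Same-numbered replicates had residual correlations of -0.036 to 0.072 across shRNAs, which gives no pairing.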

Additional observations from a re-analysis of the deposited data

Results flagged for a closer look

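The shRNAs differed from each other for 4 of the 10 costimulatory genes, by the test of sh72 minus sh68 in the same edgeR fit. CD40 was higher with sh72 than with sh68 by 0.42 on the log2 scale, with 47.1 ± 1.34 CPM with sh72 and 35.2 ± 0.834 CPM with sh68 (SD, n = 3 each). TNFSF9 was higher by 0.19, with 53.7 ± 1.98 CPM with sh72 and 47.1 ± 1.35 CPM with sh68. CD83 had a difference of -0.41, with 63.6 ± 2.01 CPM with sh72 and 84.6 ± 4.03 CPM with sh68. ICOSLG had a difference of -0.63, with 2.04 ± 0.371 CPM with sh72 and 3.17 ± 0.193 CPM with sh68. KDM1A was also lower with sh72 than with sh68, by a log2 difference of -0.23 (edgeR adjusted p = 0.00261), and 56.2% of all tested genes differed between these shRNAs.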

How the results depend on the processing

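Over the 10 costimulatory genes and 4 contrasts, 726 of 792 alternative values kept their direction and their side of the threshold, 27 no longer passed, 18 newly passed and 21 changed sign. CD80 kept its call on the mean of both shRNAs and with each shRNA under all 20 alternatives, with log2 values of 1.34 to 1.46 on the mean.

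Tested against a minimum of 1.5-fold, 2 of the 10 genes passed on the mean (CD80 and CD83), against 5.71% of all tested genes. There were 2 with sh68 (CD80 and CD40), 2 with sh72 (CD80 and CD83) and 0 in sh72 minus sh68. The shares of all tested genes in these 3 contrasts were 9.39%, 6.90% and 8.87%. At that minimum 0 genes passed of CD40 signalling, 0 of those induced by CD40 and NF-kB, 3 of the B7 and butyrophilin ligands, 1 TNF ligand, 2 adhesion and SLAM genes, 0 receptors and 2 regulators of PD-L1, PD-L2 and CD86. With the 6 LSD1 shRNA libraries as 1 group, the counts were 2 genes induced by CD40 and NF-kB, 3 B7 and butyrophilin ligands, 2 TNF ligands, 5 adhesion and SLAM genes, 0 receptors and 5 regulators. Leaving out 1 library gave 3 to 7 TNF ligands and 0 to 1 receptors.

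CD86 with sh72, at -0.0021, turned to 0.011 with RLE scaling, 0.037 with library size alone, 0.0073 with no filter, 0.014 with at least 1 CPM in 3 libraries, 0.012 with DESeq2 and 0.012 with only the groups compared, and ranged from -0.015 to 0.037 without 1 library. TNFSF9 with sh72 turned to 0.011 with library size alone and ranged from -0.049 to 0.027 without 1 library. With sh68, CD274 ranged from -0.094 to 0.23 and PDCD1LG2 from -0.28 to 0.10 without 1 library. CD70 in sh72 minus sh68, at 0.035, turned to -0.088 with offsets for the GC content and length of transcripts (adjusted p = 0.0271, range over its alternatives 0.0271 to 1), and the cause was not tested. The filter at 1 CPM removed CD274 and PDCD1LG2.

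The replicate number as a block, which the residuals do not bear out as a pairing, gave 6 called genes on the mean, 7 with sh68, 6 with sh72 and 5 in sh72 minus sh68, and the genes added were CD86 in both. Of the 33 other genes that the naming rule took none changed direction under the alternatives. Their call on the mean was lost by 6 without 1 library, by 14 with the 6 LSD1 shRNA libraries as 1 group and by 23 at the minimum of 1.5-fold. Genes under 1 CPM rest on few reads, and CD274 and PDCD1LG2 had at most 26 in any library. The labels call the replicates biological triplicates and do not say how they were grown. The p-values set the differences against the spread between these libraries only.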
